A study of Mus musculus with 4 samples.

Results

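Intestinal stem cells (ISCs), the dividing cells at the crypt base that renew the gut lining, were compared between young and old mice for 34 enzymes of glycolysis, gluconeogenesis and the pentose phosphate pathway. The members were the rows of the count table whose gene name equalled a listed enzyme, and all 34 were found among 52459 genes. The cells came from the small intestine of female wild-type C57/Bl6 mice, 2 months old (young) or 22 months old (old), and no treatment was given. They were sorted by the SM6 scheme, a set of surface antigens that separates stem cells from their progeny without a reporter allele. Each age had 2 libraries, each made by full-length SPIA amplification from the pooled cells of 5 animals, so variation between single mice was averaged within a pool. Pools of the same number were different animals.

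Glycolysis splits glucose into pyruvate with a yield of ATP, and lactate dehydrogenase turns pyruvate and lactate into one another. Gluconeogenesis runs the path in reverse through a few enzymes of its own. The pentose phosphate pathway branches off after the first phosphorylation, with an oxidative arm that makes NADPH and a non-oxidative arm that exchanges sugar phosphates for ribose. In the gut, crypt base cells are known to depend on mitochondrial oxidation as well as on lactate from neighbouring Paneth cells, and enterocytes take up dietary glucose and fructose.

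Of the 34 enzymes, 31 had enough reads to be tested, and 0 of them differed between ages at an FDR under 0.05, beside 2.26% of all genes tested. Fbp2 and Khk, which act in gluconeogenesis and fructose breakdown, had the clearest higher values in old ISCs (1.30-fold and 1.39-fold), and Pfkfb2, a bifunctional regulator of glycolytic flux, had the clearest lower value (0.652-fold), with an FDR of 0.142, 0.251 and 0.172. Of the 5 enzymes with the most reads, Ldha, Tkt, Gpi1 and Hk2 had intervals that lay within a 1.5-fold difference in either direction, and that of Fbp2 reached past it. These values came from edgeR's quasi-likelihood test on all genes passing a filter on low counts, with Benjamini-Hochberg adjustment (FDR) over them.

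The libraries held between 11662654 and 15975698 counts, of which mitochondrially encoded genes took 62.6% and 65.7% in the young pools and 73.8% and 72.9% in the old pools. The 34 enzymes together had between 7813 and 9361 counts per library, or between 0.184% and 0.209% of the counts outside the mitochondrial genes. Stem cell markers were present in every pool, with Lgr5 between 206 and 248 normalized CPM (counts scaled to a common library size and given per 1e+06), and 0 of the 10 stem cell markers were called. At an unadjusted p under 0.05, however, 6 of the 10 passed, 2 higher and 4 lower in old ISCs (60%, beside 16.9% of all genes), and Axin2, a WNT target, had a log2 fold change of −0.46 (FDR 0.0510). Of 12 enterocyte markers, 4 were called higher in old ISCs (33.3%, beside 1.63% of all genes). The list summed to 557 and 678 normalized CPM in the young pools and 1108 and 936 in the old pools. The 5 Paneth markers summed to 684, 520, 1592 and 586, with old pool 1 far above the others. Of these markers, 2 were called higher (40%, beside 1.63% of all genes). Summed leukocyte markers lay between 0.409 and 1.06 normalized CPM, with Itgax and Adgre1 at 0 in all libraries, and stromal, endothelial and muscle markers between 0.132 and 0.981, with Col1a2, Col3a1, Cdh5 and Des at 0. Goblet markers summed to between 1768 and 2402, proliferation markers to between 1396 and 1661 and tuft markers to between 2.82 and 8.24, with 0, 0 and 1 called. In these bulk samples, fewer cells of a type and less RNA per cell cannot be told apart.

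Of the 34 enzymes, 31 had over 5 reads and over 1 CPM in 1 library or more, the limit set for testing, and Ldhb, Eno2 and G6pc did not. Of the 31, 0 were called, beside 2.26% of all 13692 genes tested (1.63% higher and 0.628% lower in old ISCs). At an unadjusted p under 0.05, 5 of the 31 (16.1%) passed, beside 16.9% of all genes. They were 4 enzymes with a value above 0, beside 9.26% of all genes, and 1 below, beside 7.65%. The median log2 fold change (old over young) of the 31 was 0.087, beside −0.0049 over all genes. It varied with an SD of 0.105 over the 4 young-old pairs of libraries, which share libraries and are not independent. It was −0.036 without old pool 2. There were 16 values above 0 and 15 below (48.4%, beside 50.5% of all genes below 0). Old and young pools did not overlap for 16 of the 31 (51.6%), 10 with both old pools higher and 6 with both lower, beside 47.6% of all genes (24% and 23.6%). These shares lay near those of all genes. With 2 pools an age the precision was moderate. The 95% interval lay within a 1.5-fold difference for 9 enzymes (G6pdx, Gpi1, Hk2, Ldha, Pgd, Pkm, Rpia, Tkt and Tpi1) and within a 2-fold difference for 20, and it reached past a 2-fold difference for the other 11, and 8 of these 11 had fewer than 50 counts in every library.

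**Figure D1:**
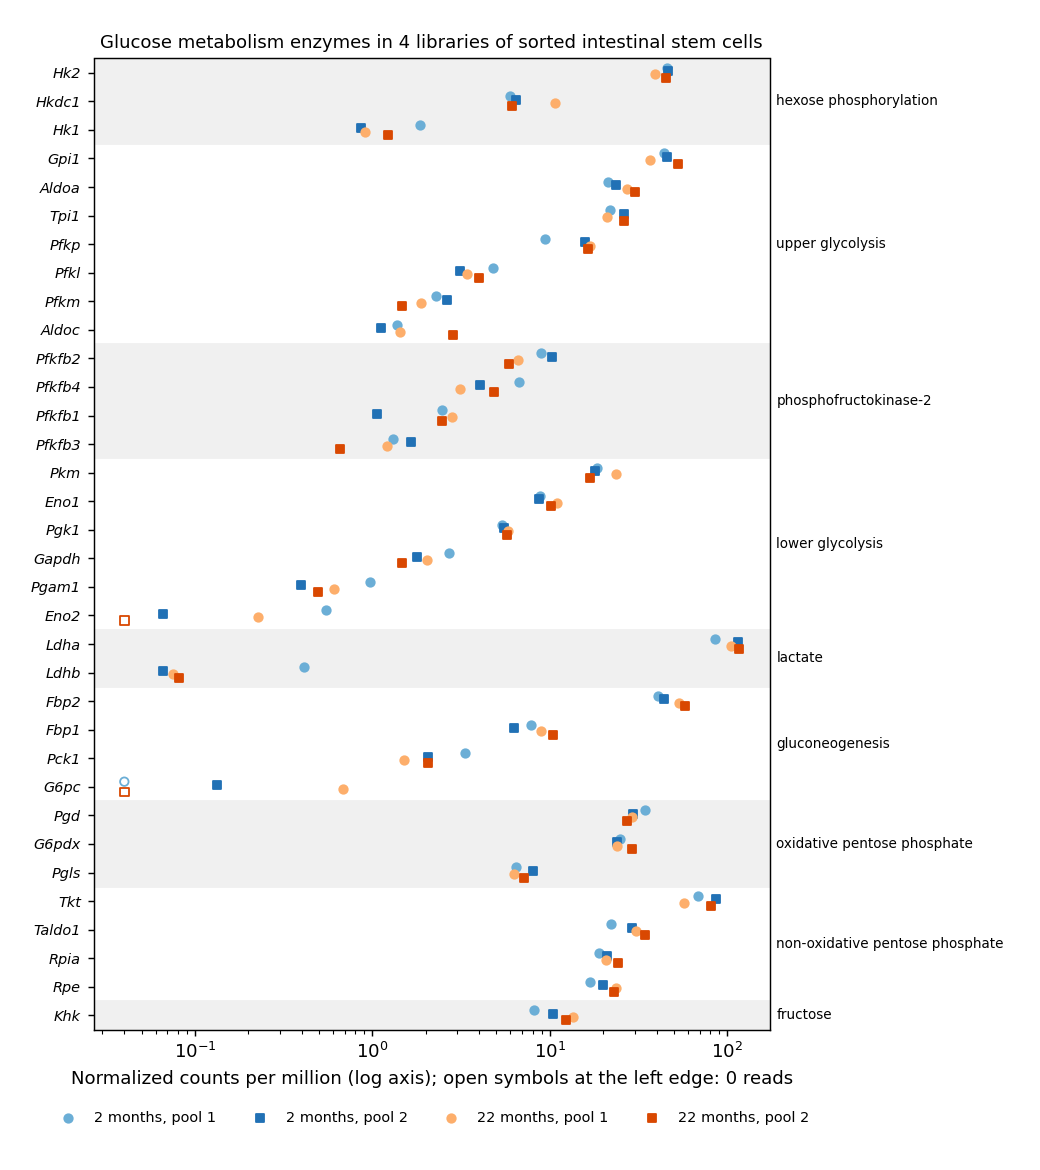
Normalized CPM (log axis) of the 34 enzymes in each of the 4 libraries, grouped by role. Circles and squares are pools 1 and 2, blue is 2 months and orange 22 months, and open symbols at the left edge mark 0 reads. The levels ran from Eno2, Ldhb and G6pc, at or under 0.680 in every pool, to Ldha, between 84.9 and 116, and for most enzymes the 4 symbols lie close together.

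Counted reads fell unevenly over the pathway. Per kilobase of merged exon, the mean level over the 4 libraries was above the median of tested genes (2.15 normalized CPM per kb, 13236 genes with a length) for 16 of the 34 enzymes. On this scale Fbp2 (33.3 normalized CPM per kb, above 98.1% of tested genes), Ldha (31.8) and Taldo1 (13.4) stood above 90% of tested genes. Their order depends on the length used, as per kb of the coding transcript Ldha had 58.1, Fbp2 36.2, Tkt 22.7 (9.95 on merged exons) and Taldo1 21.3. Other widely used enzymes differed in level, as Aldoa, Tpi1, Gpi1 and Pkm stood above between 68.3% and 87.1% of tested genes, whereas Gapdh, the glyceraldehyde phosphate dehydrogenase of lower glycolysis, had 0.483 normalized CPM per kb (above 14.4%). Its raw counts were 39 and 27 in the young pools and 27 and 18 in the old pools. Pgam1, a phosphoglycerate mutase, had 14, 6, 8 and 6 counts and stood above 8.30% of tested genes per kb. Eno1, the main enolase of most tissues, had 128, 132, 146 and 124 counts (above 44.4%), and Pgk1, the phosphoglycerate kinase, had 78, 83, 77 and 70 (above 54.8%).

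These 4 genes also shared much of their coding transcript with other genes, counted as 50-base stretches found letter for letter in a transcript of another gene on either strand. The share was 90.4% for Gapdh, 72.2% for Eno1, 68.0% for Pgk1 and 41.5% for Pgam1, and among all members it exceeded 20% for 8 (also Pfkfb2 63.5%, Pkm 39.3%, Ldhb 27% and Gpi1 25.3%), while 18 had no shared stretch. Gapdh shared stretches with 213 genes annotated as pseudogenes, and 199 of those were listed in the count table with 230, 221, 160 and 165 counts in all, more than Gapdh itself. How the authors' counting treated reads that fit several places was not given in the sources used here, and its part in the levels of these genes was not tested. The following coding stretches show what such a read holds, with the Gapdh stretch present in 84 other genes and the Pgam1 stretch in 2, and with an Ldha stretch present in no other gene, in which the capital marks the only base that differs from the pseudogene Ldha-ps2.
Gapdh, GRCm38 chr6:125162898-125162947, minus strand: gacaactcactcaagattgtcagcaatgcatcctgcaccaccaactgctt
Pgam1, GRCm38 chr19:41915608-41915657, plus strand: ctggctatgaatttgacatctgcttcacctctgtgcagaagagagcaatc
Ldha, GRCm38 chr7:46847631-46847680, plus strand: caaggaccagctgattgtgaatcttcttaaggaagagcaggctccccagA

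Divided by the whole coding transcript in place of merged exons, Gapdh came to 1.57 normalized CPM per kb, Eno1 to 4.78, Pgk1 to 3.07 and Pgam1 to 0.346. Divided by only the unshared stretches of that transcript, the same reads came to 17.1 for Gapdh (117 stretches), 17.6 for Eno1, 9.84 for Pgk1 and 0.608 for Pgam1. These values assume that every counted read lay in the unshared stretches, which was not tested, and they are too high where reads fell elsewhere. Against the median of tested genes, which was taken on merged exons throughout, Pgk1 stood higher on all 3 lengths, Eno1 on both coding lengths, Gapdh on the unshared stretches and Pgam1 on no length. The levels of the 8 enzymes with over 20% shared are thus uncertain, as are shares among isozymes that count their reads, among them those of the Pfkfb genes through Pfkfb2. Of the 8 enzymes with over 20% shared, Ldhb was not tested, and 0 of the other 7 were called, beside 2.26% of all genes.

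**Figure D2:**
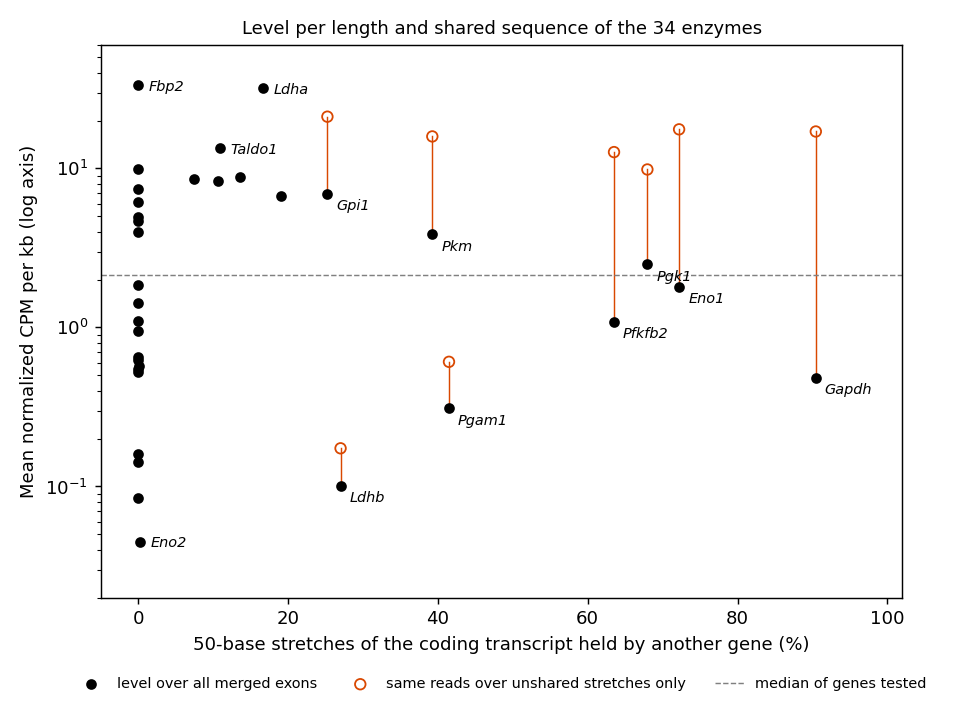
Mean level over the 4 libraries (normalized CPM per kb, log axis) against the percentage of 50-base stretches of the coding transcript held by another gene, for the 34 enzymes. Black points divide by merged exon length, open orange circles divide the reads of the 8 genes over 20% by the unshared stretches of the coding transcript, and the dashed line is the median of tested genes (2.15). Gapdh moves from 0.483 to 17.1, a step that joins the change to the coding transcript (1.57) with the removal of shared stretches, while Ldhb and Pgam1 remain under the line. The open circles assume that every counted read lay in the unshared stretches.

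Hexose phosphorylation, the entry step that traps glucose in the cell, rested mainly on Hk2, a hexokinase of dividing and insulin-sensitive cells. Hk2 had 45.5 and 46.1 normalized CPM in the young pools and 39.2 and 45.4 in the old pools, both below the young values. The log2 fold change was −0.12 (95% interval −0.40 to 0.17, FDR 0.714), and it was −0.013 without old pool 1, −0.22 without old pool 2 and −0.037 with offsets for GC content and length. Hkdc1, a hexokinase-like gene, had 5.99 and 6.42 in young and 10.7 and 6.13 in old ISCs, so that only old pool 1 stood higher (log2 fold change 0.45, SE 0.27, FDR 0.420). Without old pool 1 the Hkdc1 value was −0.016. Of the reads of Hk1, Hk2 and Hkdc1, Hkdc1 took 11.2% (Wilson 95% interval 9.19 to 13.6) and 12% (9.95 to 14.4) in young and 21.1% (18.2 to 24.3) and 11.6% (9.38 to 14.3) in old pools. Old pool 1 was also the pool with the highest Paneth and enterocyte marker sums, and the part of these cells in the Hkdc1 value was not tested. Hk1, the hexokinase of most tissues, had between 12 and 27 counts (−0.35, SE 0.64).

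In upper glycolysis, Gpi1, the glucose phosphate isomerase, and Tpi1, the triose phosphate isomerase, had the values closest to 0. Gpi1 had 44.2 and 45.8 normalized CPM in young and 36.5 and 52.7 in old ISCs, with the old pools on both sides of the young ones (log2 fold change −0.014, 95% interval −0.34 to 0.31). Tpi1 ranged from 21.1 to 26.1 (−0.026, −0.37 to 0.32). Aldoa, an aldolase that cleaves fructose bisphosphate, had 21.4 and 23.7 in young and 27.2 and 30.0 in old ISCs, with both old pools higher, and the difference missed the FDR threshold (log2 fold change 0.34, SE 0.15, FDR 0.258). Aldoc, the brain-type aldolase, had 20 and 17 against 19 and 35 counts, and its log2 fold change of 0.77 had an SE of 0.53 (FDR 0.490) and ranged from 0.20 without old pool 2 to 1.19 without old pool 1.

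Phosphofructokinase-1, the committing step of glycolysis, is encoded by Pfkl (liver type), Pfkm (muscle type) and Pfkp (platelet type). Pfkp had 9.37 and 15.9 normalized CPM in young and 16.9 and 16.4 in old ISCs, with young pool 1 low and the other three close together (log2 fold change 0.40, SE 0.22, FDR 0.364). Its value was 0.072 without young pool 1 and 0.83 without young pool 2 (FDR 0.0766). Young pool 1 was also lowest in the 5 enteroendocrine markers. They summed to 25.0 normalized CPM there, 126 in young pool 2 and 106 and 72.5 in the old pools, with 0 of the 4 tested called. Young pool 1 also had the lowest sums of enterocyte, goblet, tuft and proliferation markers. The part of any of these marker groups in the Pfkp value was not tested. Pfkp took 57.1% (50.8 to 63.3) and 73.4% (68.4 to 77.9) of the reads of the 3 genes in young pools and 76.2% (71.0 to 80.7) and 75% (69.5 to 79.8) in old pools. Pfkm took 13.9% and 12.2% against 8.5% and 6.72%, both old shares below both young shares on between 18 and 40 counts (log2 fold change −0.55, SE 0.44, FDR 0.571). Pfkl had 69 and 47 counts in young and 45 and 49 in old pools (−0.086, SE 0.33, FDR 0.926), and its share, 29.0% and 14.4% against 15.3% and 18.3%, overlapped between ages. Exons of Pfkp overlap those of Pitrm1 on the opposite strand, and the strand setting of the counting was not given in the sources used here.

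The 4 phosphofructokinase-2 genes make or remove fructose bisphosphate of the regulatory kind, the strongest activator of phosphofructokinase-1. Pfkfb2, the heart-type enzyme (GRCm38 chr1:130689182-130729253, minus strand), had 8.89 and 10.3 normalized CPM in young and 6.57 and 5.89 in old ISCs. Both old pools lay below both young pools, with a log2 fold change of −0.62 (SE 0.23, 95% interval −1.10 to −0.14, unadjusted p 0.0143, FDR 0.172). Leaving out each pool in turn gave between −0.72 and −0.51. Pfkfb4, the testis-type enzyme, had 6.68 and 4.04 against 3.10 and 4.82 (log2 fold change −0.44, SE 0.32, FDR 0.529), with overlapping pools. Its value lay between −0.78, without old pool 2, and −0.030, without young pool 1. Pfkfb3, the inducible form, had between 8 and 25 counts (−0.66, SE 0.63). Pfkfb1, the liver-type enzyme, pointed the other way (0.57, SE 0.47, FDR 0.572) with 36 and 16 against 37 and 30 counts. Its share of the reads of the 4 genes was 12.8% (9.40 to 17.2) and 6.23% (3.87 to 9.87) in young and 20.4% (15.2 to 26.9) and 17.8% (12.7 to 24.2) in old pools. Both old shares lay above both young shares, but the interval of young pool 1 overlapped those of both old pools. Exons of Pfkfb2 are shared in part with the overlapping gene Gm29427, which had between 0 and 3 counts.

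In lower glycolysis, 5 of the 6 genes were tested and no value passed an unadjusted p of 0.05. Pkm, the pyruvate kinase of dividing cells, had 18.3 and 18.1 normalized CPM in young and 23.6 and 16.8 in old ISCs (log2 fold change 0.16, 95% interval −0.22 to 0.53). The old pools lay on both sides of the young ones. Eno1 had 8.82 and 8.73 against 11 and 10.1 (0.27, SE 0.21, FDR 0.545), Pgk1 had between 5.37 and 5.82 (0.087, SE 0.26), and Gapdh had 2.69 and 1.79 against 2.04 and 1.47 (−0.34, SE 0.47), with overlapping pools. The interval of Pgam1 ran from −2.18 to 1.57, which holds a 2-fold difference in either direction, and that of Gapdh from −1.32 to 0.63, which holds a 2-fold fall. Eno2, the neuronal enolase, had 8, 1, 3 and 0 counts, and a count of 0 in old pool 2 allows up to 0.245 normalized CPM.

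Lactate dehydrogenase was read almost wholly from Ldha, the subunit that favours lactate formation. Ldha had 84.9 and 115 normalized CPM in young and 105 and 116 in old ISCs, and the old pools lay within or just above the young range (log2 fold change 0.14, 95% interval −0.15 to 0.44, FDR 0.645). Ldhb, the subunit that favours pyruvate formation, had 6 and 1 counts in young and 1 and 1 in old pools. Ldhb made up 0.485% (0.222 to 1.05) and 0.0573% (0.0101 to 0.324) of the reads of both genes in young and 0.0717% (0.0127 to 0.405) and 0.0703% (0.0124 to 0.397) in old pools. The old and young shares overlapped. Another gene held 27% of the stretches of the Ldhb coding transcript, and the part of this in its low count was not tested.

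**Figure D3:**
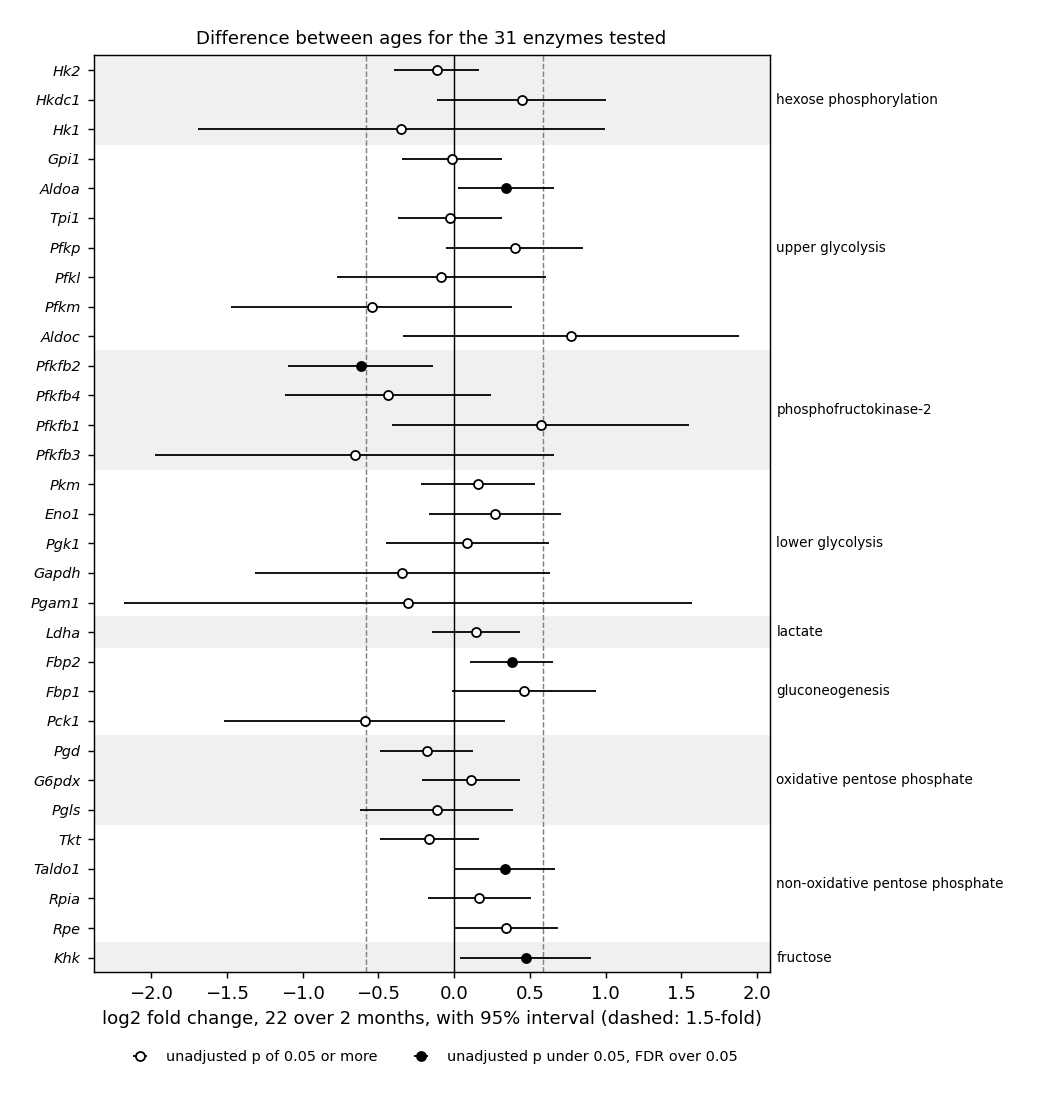
log2 fold change (old over young) with its 95% interval for the 31 enzymes tested, grouped by role. Filled points mark an unadjusted p under 0.05, dashed lines mark a 1.5-fold difference, and no enzyme had an FDR under 0.05. Fbp2, Khk, Aldoa and Taldo1 lie above 0 and Pfkfb2 below it, and the intervals of Pgam1, Hk1 and Pfkfb3 are the widest.

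Among the gluconeogenic enzymes, Fbp2, the muscle-type fructose bisphosphatase (GRCm38 chr13:62836877-62858422, minus strand), had the lowest p of all members. It had 40.9 and 44.2 normalized CPM in young (42.6 ± 2.32, SD, n = 2) and 53.3 and 57.5 in old ISCs (55.4 ± 2.99, SD, n = 2), and neither old pool reached down to the young values. The log2 fold change was 0.38 (SE 0.13, 95% interval 0.11 to 0.65, unadjusted p 0.00932 from edgeR's quasi-likelihood test, FDR 0.142), and leaving out each pool gave between 0.33 and 0.43. Fbp1, the liver-type enzyme, had 7.78 and 6.29 against 8.92 and 10.5 (log2 fold change 0.46, SE 0.23, FDR 0.314), again with both old pools higher. Fbp2 took between 84.0% and 87.5% of the reads of both genes in every pool, so the mix of the 2 genes overlapped between ages. Pck1, the cytosolic phosphoenolpyruvate carboxykinase, had 3.31 and 2.05 against 1.51 and 2.04 (−0.59, SE 0.44, FDR 0.534, and −0.21 without young pool 1 and −0.90 without young pool 2). G6pc, the glucose phosphatase of liver and kidney, had 0, 2, 9 and 0 counts, and a count of 0 allows up to 0.207 normalized CPM in young pool 1 and 0.245 in old pool 2.

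Khk, the ketohexokinase that opens fructose breakdown (GRCm38 chr5:30921431-30931248, plus strand), had 8.13 and 10.4 normalized CPM in young and 13.4 and 12.3 in old ISCs. The old values exceeded the young ones in each pairing of pools, and the log2 fold change was 0.47 (SE 0.21, 95% interval 0.040 to 0.91, unadjusted p 0.0340 from edgeR's test, FDR 0.251). It was 0.31 without young pool 1 and 0.66 without young pool 2. Of the 12 enterocyte markers 4 were called higher in old ISCs (Fabp2, with a log2 fold change of 0.93, Sis, Rbp2 and Fabp1), 8 lay higher in both old pools than in both young pools, and Apoa1, Apoa4, Lct and Vil1 overlapped between ages. The part of enterocyte RNA in the values of Fbp2, Fbp1 and Khk was not tested.

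In the oxidative pentose phosphate arm, G6pdx, the X-linked glucose phosphate dehydrogenase that makes NADPH, had 25.0 and 24 normalized CPM in young and 23.9 and 29.1 in old ISCs (log2 fold change 0.11, 95% interval −0.21 to 0.44). Pgd, the next NADPH-yielding dehydrogenase, had 34.2 and 29.4 against 28.9 and 27.2 (−0.18, −0.49 to 0.13, FDR 0.570). Both old pools lay below both young pools, by a margin of 0.513 normalized CPM between the nearest 2 pools, and the value was −0.066 without young pool 1, −0.29 without young pool 2 and −0.11 with the GC and length offsets. Pgls, the lactonase between the 2 dehydrogenases, ranged from 6.27 to 8.01 (−0.12, −0.62 to 0.39).

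In the non-oxidative arm, Tkt, the transketolase, had the most reads of the 34 genes after Ldha, and its old pools differed from each other more than the ages did. Tkt had 68.7 and 85.9 normalized CPM in young and 57.0 and 81.2 in old ISCs (−0.16, 95% interval −0.49 to 0.16, FDR 0.639). The value was −0.041 with offsets for GC content and length and 0.0040 without young pool 2. With old pool 1 alone on the old side Tkt was called lower (−0.44, FDR 0.0479), on the assumption that the lone pool varied like the young ones, and with old pool 2 alone the value was 0.072. Taldo1, the transaldolase, had 22.3 and 29.1 against 30.7 and 34.2, with both old pools higher (0.34, SE 0.16, FDR 0.287). Its value was 0.16 without young pool 1 and 0.54 without young pool 2. Rpe, the ribulose phosphate epimerase, had 16.7 and 20.0 against 23.5 and 23.1 (0.34, SE 0.16, FDR 0.297), and its value was 0.22 without young pool 1 and 0.19 with offsets for GC content and length. Rpia, the ribose phosphate isomerase, ranged from 19 to 24.3 (0.17, SE 0.16). Of the reads of Tkt and Taldo1, Taldo1 took 24.5% (22.2 to 26.9) and 25.3% (23.3 to 27.4) in young and 35.1% (32.4 to 37.8) and 29.6% (27.3 to 32.1) in old pools. These shares need no scaling between libraries. The shares themselves did not overlap between ages, but the intervals of young pool 2 and old pool 2 did. The pair was chosen after its values were seen. By an exact permutation, a comparison of 2 pools with 2 cannot be tested below a p of 0.333.

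**Figure D4:**
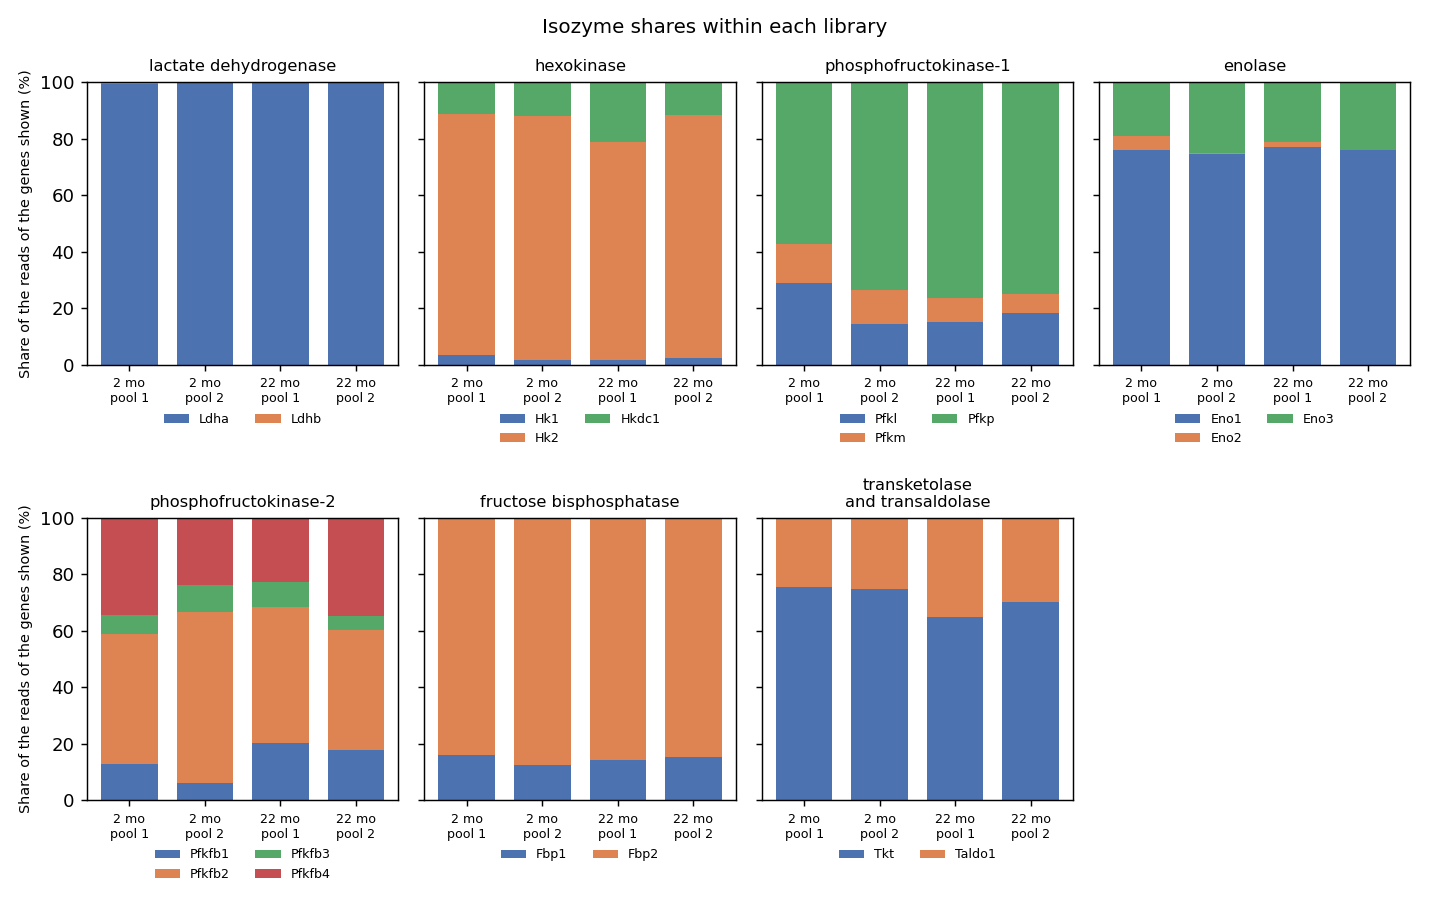
Share of reads (%) within each library for 7 sets of isozymes or paired enzymes, stacked to 100. Ldha took 99.5% or more in all pools and Fbp2 between 84.0% and 87.5%, Hkdc1 was higher in old pool 1 than in the other three pools, and the shares of Pfkp, Pfkm, Pfkfb1, Tkt and Taldo1 did not overlap between ages.

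Over the 19 shares computed, 5 did not overlap between ages, of which the Tkt and Taldo1 shares are one observation, as they add to 100%. Of all genes tested, 47.6% did not overlap between ages in their normalized CPM. Leaving out the genes with an overlapping exon or a shared stretch left 4 shares to compare anew (Hk2 with Hkdc1 and Pfkfb3 with Pfkfb4), and 0 of these were free of overlap. Pfkp, Pfkm, Pfkfb1, Tkt and Taldo1 are themselves left out by that step, so their shares could not be compared in this way. Shares are of reads, not per length, and the intervals cover counting error only.

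Promoters were searched for CACGTG, the E-box letters that MYC and the carbohydrate-responsive factor ChREBP are known to favour. The window was the 300 bases from 250 before to 50 after each RefSeq start (GRCm38.p6). All 34 genes matched, with 52 promoters. Of these 52, 6 (11.5%) held CACGTG, in Fbp2, Khk, Ldha, Pfkfb2, Pfkfb3 and Pfkm, beside 7.15% of all 32851 promoters, and 19 (36.5%) held ACGTG on either strand, which includes every CACGTG, beside 19.6%. The promoter letters of the member with the most reads and of the pair with the lowest p are shown for the 250 bases before the start, with CACGTG in capitals. A match says only that the letters are present.
Ldha, chr7:46845554-46845803, plus strand: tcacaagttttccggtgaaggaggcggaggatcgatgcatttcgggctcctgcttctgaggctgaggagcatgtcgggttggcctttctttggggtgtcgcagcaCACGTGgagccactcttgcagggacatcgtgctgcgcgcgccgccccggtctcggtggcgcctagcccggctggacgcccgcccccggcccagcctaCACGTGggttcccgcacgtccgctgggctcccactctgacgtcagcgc
Fbp2, chr13:62858401-62858650, minus strand: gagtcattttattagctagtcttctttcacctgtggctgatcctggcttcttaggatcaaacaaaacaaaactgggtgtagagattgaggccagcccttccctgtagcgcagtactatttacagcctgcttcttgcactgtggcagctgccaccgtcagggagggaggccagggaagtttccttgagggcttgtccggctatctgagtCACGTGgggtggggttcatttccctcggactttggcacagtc
Pfkfb2, chr1:130715822-130716071, minus strand: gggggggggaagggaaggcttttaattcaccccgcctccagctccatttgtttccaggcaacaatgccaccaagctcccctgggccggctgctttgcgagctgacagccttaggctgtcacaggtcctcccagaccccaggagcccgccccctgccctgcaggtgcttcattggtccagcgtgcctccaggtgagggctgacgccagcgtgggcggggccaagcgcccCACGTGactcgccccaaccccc

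Ldha held the letters at 2 places, beginning 145 and 48 bases before this start, Fbp2 at 1 place, beginning 42 bases before, and Pfkfb2 at 1 place, beginning 22 bases before. The 3 genes had log2 fold changes of 0.14, 0.38 and −0.62, so the genes holding the letters lay on both sides of 0.

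Around the pathway, a list of 76 other genes found in the table was read from the same fit. Of these, 61 were tested, 2 were called higher and 0 lower (3.28%, beside 2.26% of all genes), and the median log2 fold change was 0.079. Dld, the lipoamide dehydrogenase subunit that pyruvate dehydrogenase shares with other mitochondrial complexes, rose from 69.0 and 81.9 normalized CPM in young to 117 and 122 in old ISCs (log2 fold change 0.67, SE 0.13, FDR 0.00815). Nfe2l2, the antioxidant regulator NRF2 that is known to drive NADPH-making genes, rose from 146 and 177 to 218 and 245 (0.52, SE 0.12, FDR 0.0298). Neither call held without young pool 1 (FDR 0.119 and 0.391) or with offsets for GC content and length (0.0712 and 0.136). The log2 fold changes were then 0.55 and 0.39 without that pool and 0.52 and 0.42 with the offsets.

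All 10 tested genes of the pyruvate dehydrogenase switch, which admits pyruvate to mitochondrial oxidation, had a value above 0 (median 0.24), while 50.5% of all genes had one below 0, but Dld was the only one called. The group joins subunits of the complex with its activating phosphatases and its inhibitory kinases, and the kinases Pdk2 and Pdk1 stood at 0.015 and 0.026. Enterocyte and Paneth markers had median log2 fold changes of 0.67 and 0.87, and their part in the values of this group, Dld included, and of Nfe2l2 was not tested. Pdhb, a subunit of the same complex, had 26.8 and 31.6 against 34 and 40.1 (0.34, SE 0.15, FDR 0.248), and the inhibitory kinase Pdk4 had 5.72 and 0.794 against 6.20 and 6.05, with young pool 2 far below the other three (0.92, SE 0.48, FDR 0.348). Of the 9 tested carriers, 6 values lay above 0 and 0 were called. Slc5a1, the sodium-coupled glucose importer of the brush border and itself on the enterocyte marker list, had 95.3 and 94.9 against 132 and 122 (0.41, SE 0.12, FDR 0.0751). With limma's voom and a quality weight for each library it passed the threshold (FDR 0.0382), as it did in edgeR's test without old pool 2 (0.47, FDR 0.0142), again with a lone old pool assumed to vary like the young ones. It did not pass without any other pool (FDR 0.102 to 0.358), with the GC and length offsets (0.160) or with upper quartile scaling (0.116). Mpc2, a subunit of the mitochondrial pyruvate carrier, had 20.3 and 25.0 against 32.6 and 30.3 (0.47, SE 0.15, FDR 0.120). Among the 17 tested regulators 8 values lay above 0, and Txnip, a glucose-induced brake on glucose uptake, had 117 and 95.1 against 137 and 143 (0.40, SE 0.13, FDR 0.104). It was called without old pool 1 (0.44, FDR 0.0268), with old pool 2 then assumed to vary like the young ones, and it was 0.26 without young pool 2 (FDR 0.547) and 0.33 with the offsets (FDR 0.252).

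**Figure D5:**
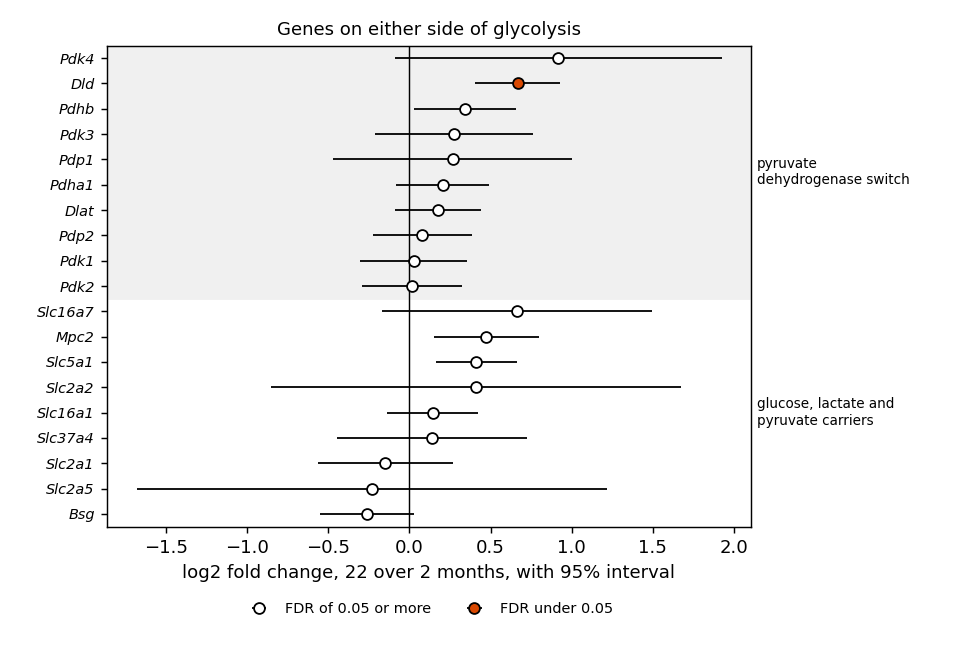
log2 fold change (old over young) with its 95% interval for the 10 tested genes of the pyruvate dehydrogenase switch and the 9 tested carriers. The filled point marks an FDR under 0.05. Dld stands at 0.67 with an interval from 0.40 to 0.93, and all 10 genes of the upper group lie at or above 0.015, while Bsg, Slc2a5 and Slc2a1 of the lower group lie below 0.

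Scaling by total counts, which counts the mitochondrial reads, moved the median of all genes to −0.49, and 7 of the 31 enzymes (Pfkfb2, Hk2, Pgd, Pfkfb4, Tkt, Tpi1 and Gpi1) were then called lower beside 4536 of all genes. This shift acts on all genes alike, so the sign changes it brings are set by the scaling. Relative to that median, Fbp2 stood at 0.39, Khk at 0.48, Pfkfb2 at −0.61 and Tkt at −0.15, and Dld and Nfe2l2 kept a value above 0 (0.18 and 0.037 before this subtraction) but lost their calls.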

How the data were processed

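RNA from ISCs of 2-month-old and 22-month-old mice was measured in 4 libraries, 2 pools of 5 animals per age. The authors trimmed reads with Trimmomatic (0.30), aligned them to GRCm38 with STAR (2.4.2a) and deposited raw read counts per GENCODE vM15 gene from featureCounts, neither normalized nor filtered. How reads fitting several genes, or either strand, were counted was not given in the sources used here. SPIA amplification precedes counting and carries no molecular identifiers, so Wilson intervals and floors (3 counts) cover counting error only.

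A gene was kept if any library gave it over 5 reads and over 1 CPM (13692 of 52459). Ages were compared with edgeR 4.0.16 (R 4.3.3) by TMM normalization and the quasi-likelihood test, with Benjamini-Hochberg adjustment over all genes kept. Standard errors and 95% intervals came from the same fit, and members were read from the whole fit. Normalized CPM are counts scaled to 1e+06 of the TMM-adjusted library size. P-values set the difference between ages against the spread between pools. That spread is estimated partly from all genes kept, so SEs, intervals and p-values do not rest on a gene's own pools alone. Alternatives used limma 3.58.1, DESeq2 1.42.0, other scalings and filters, a replicate block, GC and length offsets, and each pool left out. The fits were tested on simulated data. Lengths and shared 50-base stretches came from GENCODE vM21 (GRCm38), where 47976 genes matched by symbol, and promoters from RefSeq (GRCm38.p6). Aldoa has 2 records there, and the one with the longer coding sequence was used. No protein table was used here, and some listed genes and sequences are not reported here.

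Full statistics are given for the 12 members of lowest p, the most highly read gene of each of the 9 roles, and the 5 other pathway genes of lowest p, and further values are given to account for every member. Members and lists were chosen with earlier results of these data known.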

Additional observations from a re-analysis of the deposited data

How the results depend on the processing

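The count of members called higher was 0 in all alternatives run, and the count called lower was 0 except with total counts (7) and when a pool was left out (0 to 1). Over all genes, the calls higher and lower were 223 and 86, against 375 and 236 by edgeR's likelihood ratio test, 147 and 50 by DESeq2, 357 and 197 with no filter, 95 and 30 with offsets for GC content and length, 96 and 4536 with total counts, and 123 to 478 and 28 to 250 with each pool left out. Of the other pathway genes, 2 were called higher, against 0 with total counts, 0 with the offsets and 1 to 4 with each pool left out, and the count lower went from 0 to 22 with total counts and to 0 to 3 with each pool left out. The members' median log2 fold change of 0.087 was −0.40 with total counts, 0.027 with no filter and 0.046 with upper quartile scaling. With each pool left out it was −0.036 to 0.085, the lowest without old pool 2. The replicate numbers pair no animals, and deviations of same-numbered pools correlated at −0.0059. With the number as a replicate block, 407 genes were called higher and 217 lower, with 5 of the other pathway genes higher, among them Slc5a1 (FDR 0.0464) and Txnip (0.0459), and 0 members called.

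Of 288 comparisons of 18 named members with 16 alternatives, 263 kept sign and side of the threshold and 18 changed sign, most of them with total counts, where the shift of all genes sets the sign. The log2 fold changes there were −0.11 for Fbp2, −0.012 for Khk, −0.14 for Aldoa, Taldo1 and Rpe, −0.033 for Fbp1, −0.076 for Pfkp, −0.048 for Hkdc1, −0.34 for Pkm and Ldha, −0.080 for Slc5a1, −0.094 for Txnip and −0.011 for Mpc2, beside a median of −0.49 over all genes. Gpi1 was 0.077 with the offsets. With each pool left out, Hkdc1 ranged from −0.016 to 0.79, Gpi1 from −0.30 to 0.23, Pkm from −0.11 to 0.38, Ldha from −0.060 to 0.38 and Tkt from −0.44 to 0.072. The causes were not tested. Standard errors were highest for Pgam1, Hk1, Pfkfb3, Aldoc, Pfkfb1 and Gapdh, with between 6 and 39 counts per library, and Ldhb, Eno2 and G6pc could not be tested with the filter.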
